A study of Mus musculus with 12 samples.

Results

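Amino acid transporter genes were taken as the genes whose symbol in the array annotation starts with Slc1a, Slc3a, Slc6a, Slc7a, Slc36a, Slc38a or Slc43a and a digit, with each gene read from the probe set of highest mean over the 12 arrays. There were 63 such genes among 19937 measured genes. By their symbols 2 of them, Slc7a6os and Slc6a19os, are opposite-strand neighbours of a transporter gene and not transporters themselves. The study measured newly made RNA in mouse macrophages of the strain C57BL/6 in 4 groups of 3 arrays each. The groups were MPI-2 cells given LPS, MPI-2 cells given a mock treatment, bone marrow-derived macrophages (BMM) given LPS, and BMM given a mock treatment. MPI-2 is 1 cell line derived from fetal liver and grown in RPMI medium with GM-CSF, while BMM were differentiated outside the body in DMEM with M-CSF, and both media held fetal calf serum. The LPS was R-LPS. All groups were exposed to 4-thiouridine, a uridine analogue that is built into RNA as it is made and lets that RNA be pulled out, for 60 min. In the LPS groups labelling began 30 min after LPS, so that it ended at 90 min. The labels call the 3 samples of a group biological replicates without saying how many mice or cultures they came from, so the p-values reflect only how far these samples vary, which may be technical.

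Amino acids cross membranes through families of carriers with different energy sources. Light chains of the Slc7 family pair with a heavy chain of the Slc3 family and exchange 1 amino acid for another, Slc1 and Slc38 members use sodium, Slc36 members use protons and some sit on the lysosome, and Slc6 members carry glycine, proline, taurine, creatine, betaine and monoamines with sodium and chloride. In activated macrophages these carriers are known for supplying cystine for glutathione, arginine for nitric oxide and leucine and glutamine for growth, and several feed amino acids to the kinase complex mTORC1 or are targets of the stress factor ATF4. Because the cultures were measured in bulk, fewer cells of a kind and less new RNA per cell cannot be told apart.

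Start-site windows are shown for 3 of the 8 genes that passed the test given below with LPS in both cell types. They are Slc7a11, higher in both, Slc7a7, opposite in direction, and Slc38a7, lower in both. Slc43a3 and Slc7a8 were also higher in both, and Slc43a2, Slc6a6 and Slc7a5 lower in both. Their windows are not shown, and no rule of the test set these genes aside. Each window holds 250 bases before and 50 after a RefSeq start site of the assembly GRCm38.p6, all on the minus strand and written 5′ to 3′. Capitals mark matches, on either strand, to the ATF4-C/EBP composite element TGATGNAA or to the NF-kB pattern, GGG and CC with 5 bases between them, in the first 2, and to the E-box CACGTG or the AP-1 pattern TGANTCA in the third. The first 2 windows had no match to the E-box or AP-1 pattern, and the third none to the composite element or NF-kB pattern. The motifs marked are thus those that matched, and their presence in these windows is not a result.
Slc7a11, chr3:50443564-50443863: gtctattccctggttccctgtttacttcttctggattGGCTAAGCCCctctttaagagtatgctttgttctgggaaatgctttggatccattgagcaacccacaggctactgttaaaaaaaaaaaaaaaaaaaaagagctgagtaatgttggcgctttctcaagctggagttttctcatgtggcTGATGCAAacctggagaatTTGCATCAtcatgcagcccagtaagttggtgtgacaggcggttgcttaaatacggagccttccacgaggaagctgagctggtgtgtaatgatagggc
Slc7a7, chr14:54417653-54417952: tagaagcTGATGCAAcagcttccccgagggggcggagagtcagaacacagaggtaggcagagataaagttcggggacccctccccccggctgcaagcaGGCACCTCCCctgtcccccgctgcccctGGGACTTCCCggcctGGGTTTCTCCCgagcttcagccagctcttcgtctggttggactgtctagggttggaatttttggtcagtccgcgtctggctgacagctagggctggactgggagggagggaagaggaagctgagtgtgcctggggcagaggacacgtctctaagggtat
Slc38a7, chr8:95853442-95853741: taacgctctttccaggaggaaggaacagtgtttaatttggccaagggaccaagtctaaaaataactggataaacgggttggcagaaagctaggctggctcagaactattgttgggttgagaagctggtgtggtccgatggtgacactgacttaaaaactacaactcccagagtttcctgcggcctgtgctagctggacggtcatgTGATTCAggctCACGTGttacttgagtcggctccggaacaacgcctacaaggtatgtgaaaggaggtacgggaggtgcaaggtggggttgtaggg
The Slc7a11 window held the composite element on both strands, at -66 to -59 and at -47 to -40 from the start site. Of the 5 start sites listed for Slc7a7, only 1 had a window with both the composite element and an NF-kB match. That window was chosen for holding both, so their presence in it is not a result. Its 1 composite element lay at -243 to -236, and its longest capital run is a pair of overlapping NF-kB matches. Slc38a7 held an AP-1 match at -45 to -39 and an E-box at -34 to -29. The antioxidant response pattern TGACNNNGC was searched too, and no match of 1 motif overlapped a match of another in these windows.

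The motif counts describe letters and not bound sites. RefSeq start-site windows were at hand for 47 of the 63 genes, in 68 windows, and the composite element lay in 5 of these windows, against 3.97% of all 32851 windows searched. The genes with it, 4 of the 47, were Slc7a11, Slc7a7, Slc1a4 and Slc6a21. Windows of nearby start sites overlap, so the same element can be counted more than once, as it was for Slc7a7. NF-kB matches lay in 38 of the 68 windows, against 50.8% of all, so that pattern was common everywhere. The E-box lay in 9 of the 68 windows against 7.15% of all, the AP-1 pattern in 10 against 7.81%, and the antioxidant pattern in 11 against 12.4%.

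Values are log2 expression, and a difference of 1 is a doubling. Background was set at 3.36, the 95th percentile of the means of 1027 olfactory receptor genes, most of which are silent outside the olfactory epithelium. Above it in at least 1 group were 41 of the 63 transporter genes (65.1%), against 67% of all genes, and 27 were above it in all 4 groups. Under it in every group were 22 genes (34.9%), many of them known from brain, kidney or gut. They were Slc1a1, Slc1a3, Slc3a1, Slc6a2, Slc6a5, Slc6a13, Slc6a14, Slc6a15, Slc6a16, Slc6a18, Slc6a19, Slc6a19os, Slc6a21, Slc7a3, Slc7a9, Slc7a12, Slc7a13, Slc7a15, Slc36a3, Slc38a3, Slc38a4 and Slc38a11.

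Arrays of a group resembled each other, with a mean correlation over genes of 0.995 in every MPI-2 array and of 0.976 to 0.986 in BMM arrays, where LPS replicate 3 and mock replicate 1 were lowest. The spread of values over genes, as interquartile range, was 3.1 to 3.22 in MPI-2 LPS, 3.27 to 3.47 in MPI-2 mock, 2.34 to 2.74 in BMM LPS and 2.8 to 2.93 in BMM mock arrays. Of 11 macrophage markers 10 lay above background in every group and 1, Aif1, in none. Their summed log2 level was lower in MPI-2 (82.7 on every LPS array and 80.6 to 81.7 on mock arrays) than in BMM (86.2 to 88.8 with LPS and 93.3 to 94.9 with mock). Of 11 fibroblast, liver and erythroid markers 5 to 8 lay above background in a group. By the test given below, 1 of them was called higher and 2 lower in MPI-2 with mock (against 20.6% and 18% of all genes). With LPS 1 was called higher and 3 lower (against 22.5% and 21.6%). Pdgfra was higher in MPI-2, by 2.74 ± 0.16 with mock, over a BMM mean of 3.39 near background. With LPS its means were 4.41 in MPI-2 and 3.5 in BMM. Of 8 T and B cell markers 1 to 3, and of 6 granulocyte precursor markers 1 to 3, lay above background. The part of these differences in the results below was not tested. Cell type, origin, medium and growth factor go together in this design and cannot be told apart.

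A gene is called where limma's Benjamini-Hochberg adjusted p over all 19937 genes was under 0.05. With LPS in MPI-2, 6 of the 63 genes were called higher (9.52%, against 5.17% of all genes) and 8 lower (12.7%, against 9.58%). In BMM, 8 were called higher (12.7%, against 10.3%) and 9 lower (14.3%, against 15.4%). The BMM shares and the MPI-2 share of lower genes are near those of all genes, the MPI-2 share of higher genes is above it without a test of that difference, and the median difference was 0.06 in MPI-2 and 0.07 in BMM, against 0.02 and 0.04 over all genes. The response itself differed between the cell types for 13 genes, 8 with a higher response in MPI-2 (12.7%, against 7.08%) and 5 with a lower one (7.94%, against 6.27%). Both LPS comparisons called 8 genes, 7 of them in the same direction and Slc7a7 in opposite ones. A further 15 genes were called in 1 cell type and 40 in neither. This overlap was not counted over all genes, so it is not read as particular to the transporter genes.

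Between the cell types, MPI-2 against BMM, 15 genes were higher with LPS (23.8%, against 22.5% of all genes) and 19 lower (30.2%, against 21.6%), and 12 were higher with mock (19%, against 20.6%) and 12 lower (19%, against 18%). The lower calls depended on the scaling. With cyclic loess, quantile normalization and median centring the counts higher and lower were 15 and 10, 16 and 10, and 18 and 7 with LPS, and 11 and 8, 11 and 7, and 15 and 5 with mock. Of all genes these scalings called 17.6%, 17.2% and 11.2% lower with LPS, and 16.5%, 15.7% and 9.58% with mock. Their shares called higher were 17.8%, 18.5% and 25.8% with LPS, and 16.8%, 16.3% and 25.2% with mock. Median centring moved the median of all genes to 0.02 with LPS and 0.08 with mock, against -0.14 and -0.1 as reported. Of the 22 genes under background 5 were called lower in MPI-2 with LPS and 4 with mock. The medians of these genes were -0.25 and -0.16, next to -0.21 and -0.13 for the olfactory receptor genes. Leaving out MPI-2 LPS replicate 3 or BMM LPS replicate 1 gave 9 and 10 lower calls with LPS, beside 14.6% and 17.3% of all genes. Without MPI-2 mock replicate 1, 2 or 3 there were 7 lower calls with mock, beside 13.7%, 13.2% and 15.1% of all genes. Without BMM LPS replicate 3 there were 16, beside 20.4%.

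**Figure D1:**
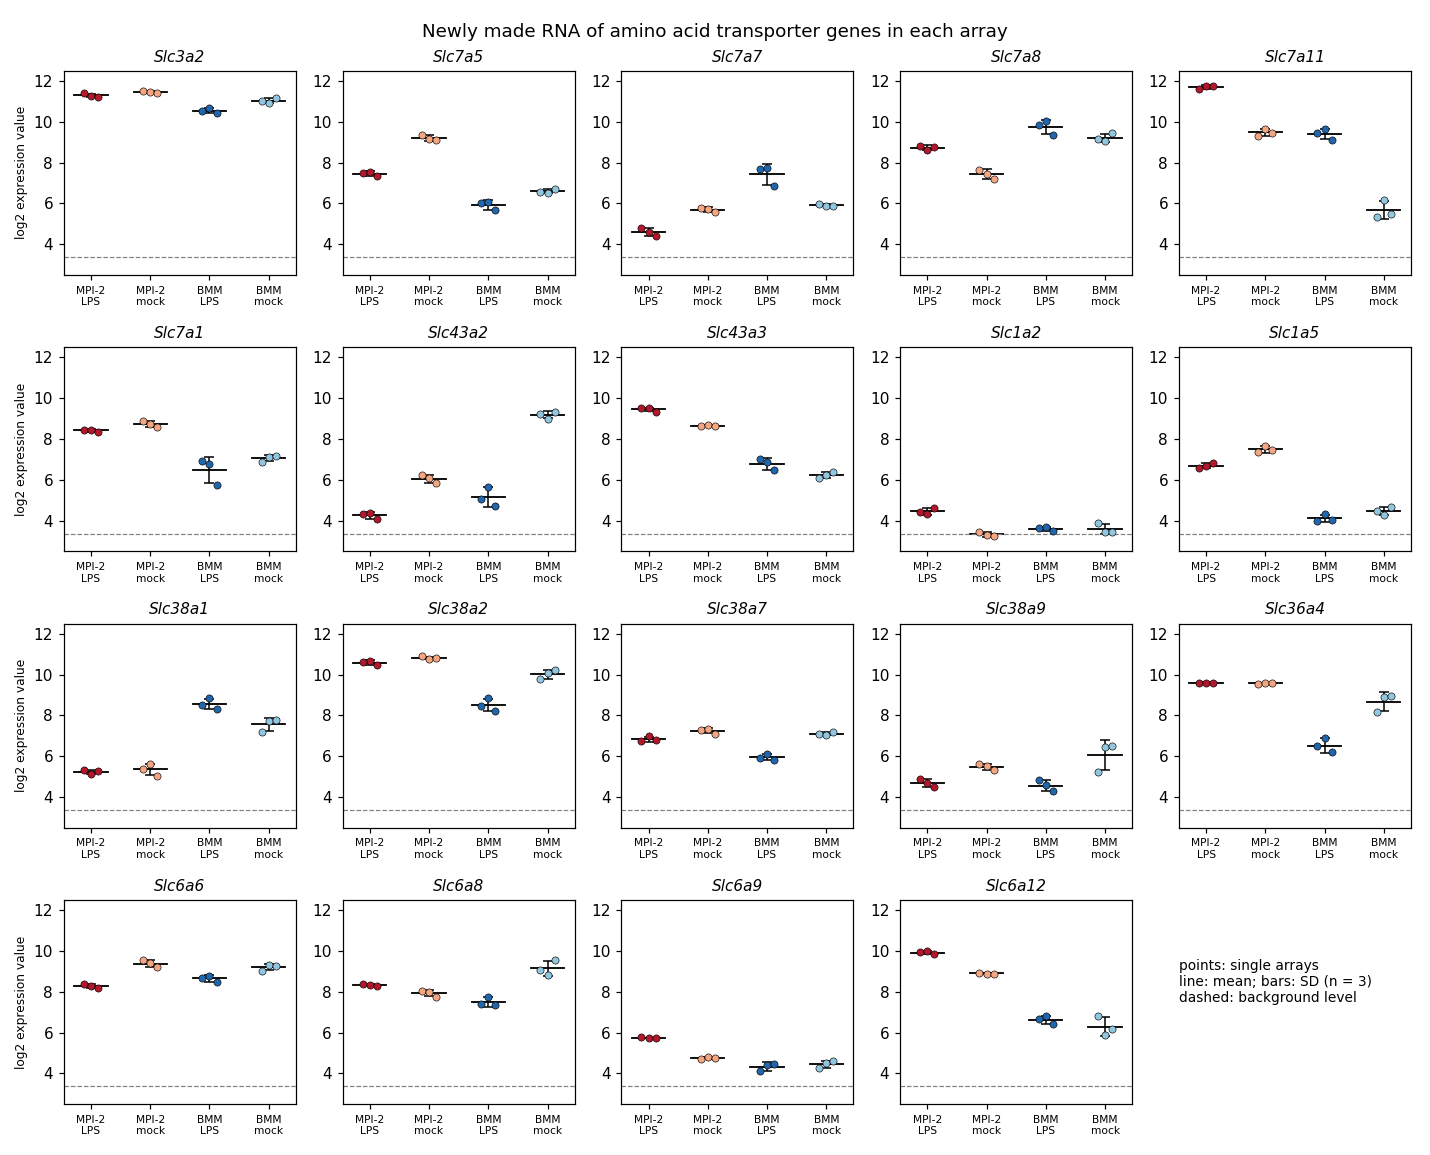
Log2 expression of the 19 transporter genes with values for every array, 1 panel a gene; points are arrays, bars the mean and SD of 3 arrays, and the dashed line the background of 3.36. Groups run left to right as MPI-2 LPS, MPI-2 mock, BMM LPS and BMM mock. Slc7a11 stands above its mock group in both cell types, and Slc43a2 below.

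The cystine-glutamate exchanger light chain Slc7a11, which imports cystine for glutathione, gained the most of all transporter genes in both cell types. Its arrays read 11.59, 11.77 and 11.75 in MPI-2 LPS and 9.31, 9.65 and 9.47 in MPI-2 mock. They read 9.47, 9.63 and 9.11 in BMM LPS and 5.35, 6.16 and 5.47 in BMM mock. LPS and mock arrays did not overlap in either cell type, and BMM with LPS reached about the level of MPI-2 without it. The LPS response was 2.23 ± 0.19 (SE) in MPI-2 (adjusted p = 9.19e-07) and 3.75 ± 0.19 in BMM (9.52e-10), a difference of -1.52 ± 0.27 (0.00119). MPI-2 was above BMM by 2.3 with LPS and by 3.82, or 14.1-fold, with mock.

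Slc3a2, the heavy chain CD98 that carries Slc7a11 and most other light chains to the surface, moved little beside its partner. It read 11.4, 11.25 and 11.22 in MPI-2 LPS against 11.53, 11.47 and 11.39 in MPI-2 mock, and 10.53, 10.66 and 10.42 in BMM LPS against 11.03, 10.91 and 11.15 in BMM mock. The MPI-2 groups overlapped narrowly, whereas in BMM every LPS array was below every mock array. The difference was -0.17 in MPI-2, which was not called (adjusted p = 0.463), and -0.49 ± 0.12 in BMM, which was (0.00513). In MPI-2 it was called under cyclic loess (-0.48, 0.0216) and quantile normalization (-0.56, 0.0034). The 2 responses were not told apart (0.32 ± 0.17, 95% interval -0.04 to 0.67, adjusted p = 0.282). Slc3a2 was higher in MPI-2 by 0.75 with LPS and by 0.43 with mock; the mock value was 0.03 under cyclic loess and 0.28 under quantile normalization, neither called.

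The large neutral amino acid exchanger light chains Slc7a5 (LAT1), the main leucine importer of growing cells, and Slc7a8 (LAT2) went opposite ways. Slc7a5 read 7.49, 7.56 and 7.33 in MPI-2 LPS and 9.35, 9.18 and 9.09 in MPI-2 mock, then 6.03, 6.08 and 5.66 in BMM LPS and 6.56, 6.53 and 6.71 in BMM mock. Every LPS array was below every mock array of its cell type. The gene fell by 1.74 in MPI-2 (SE 0.14, adjusted p = 3.19e-07) and by 0.67 in BMM (0.14, 0.00142), and the fall was larger in MPI-2 (-1.07 ± 0.19, 0.00125). Even so it was higher in MPI-2 than in BMM, by 1.53 with LPS and 2.61 with mock.

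Slc7a8 read 8.81, 8.62 and 8.79 in MPI-2 LPS against 7.66, 7.45 and 7.19 in MPI-2 mock, and 9.83, 10.03 and 9.37 in BMM LPS against 9.18, 9.05 and 9.45 in BMM mock. The MPI-2 groups were apart, and the BMM groups overlapped through LPS replicate 3. The response was 1.31 ± 0.17 in MPI-2 (adjusted p = 7.38e-05) and 0.52 ± 0.17 in BMM (0.0383). The BMM call was lost without BMM LPS replicate 1 (0.48) or 2 (0.37), without BMM mock replicate 1 (0.49) or 2 (0.43), and, at 0.52 each, without MPI-2 LPS replicate 1 or 3 or MPI-2 mock replicate 2. The difference of responses, 0.79 ± 0.25 (0.0448), was lost without any MPI-2 LPS replicate (0.75, 0.85 and 0.76), MPI-2 mock replicate 2 or 3 (0.8 and 0.66), BMM LPS replicate 1 or 3 (0.83 and 0.6) or BMM mock replicate 3 (0.68). It was also lost under median centring (0.76, adjusted p = 0.0705) and with a replicate block (0.79, adjusted p = 0.0522). Slc7a8 was lower in MPI-2 than in BMM, by 1 log2 unit with LPS (-1 ± 0.17) and more with mock (-1.79 ± 0.17).

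Slc7a7 (y+LAT1), which exports arginine and lysine in exchange for neutral amino acids and is the gene of lysinuric protein intolerance in humans, responded in opposite directions. Its arrays read 4.8, 4.6 and 4.43 in MPI-2 LPS and 5.78, 5.74 and 5.57 in MPI-2 mock. They read 7.67, 7.73 and 6.85 in BMM LPS and 5.98, 5.86 and 5.9 in BMM mock. No LPS array overlapped a mock array of its cell type, below them in MPI-2 and above them in BMM. The response was -1.09 ± 0.19 in MPI-2 (adjusted p = 0.000832) and 1.5 ± 0.19 in BMM (1.86e-05), and the difference of -2.59 ± 0.27 had an adjusted p of 7.61e-06. With mock the cell types were not told apart as reported, though cyclic loess (-0.53, 0.0196) and quantile normalization (-0.58, 0.0106) called the gene lower in MPI-2; with LPS MPI-2 was lower by 2.81 (-2.81 ± 0.19). Its close relative Slc7a6 (y+LAT2) averaged 7.11 in MPI-2 LPS, 7.19 in MPI-2 mock, 5.31 in BMM LPS and 5.67 in BMM mock. Slc7a6 was higher in MPI-2, by 1.79 with LPS and 1.53 with mock, and was called with LPS in neither cell type, save in BMM with LPS replicate 2 left out (-0.5, 0.0379).

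Slc7a1 (CAT1), the general importer of arginine, lysine and ornithine, read 8.45, 8.46 and 8.36 in MPI-2 LPS and 8.86, 8.73 and 8.58 in MPI-2 mock, and 6.92, 6.79 and 5.76 in BMM LPS and 6.88, 7.13 and 7.16 in BMM mock. BMM LPS replicate 3 lay far below the other BMM arrays. The response was -0.3 in MPI-2 (adjusted p = 0.525) and -0.56 ± 0.22 in BMM (0.0823), neither called. It was called in BMM without LPS replicate 1 (-0.78, 0.0215) or 2 (-0.71, 0.0441), and in MPI-2 when only its own arrays were fitted (-0.3, 0.0489). MPI-2 was higher by 1.93 ± 0.22 with LPS (3.3e-06) and by 1.67 ± 0.22 with mock (1.93e-05). Of the 5 genes of this group 3 were above background, and the others called were low: Slc7a14 was called higher in BMM (0.48 ± 0.16, 0.0335), with a mock mean under background, a call lost under 10 of 22 alternatives, among them those without BMM LPS replicate 1 (0.46) or 3 (0.38) and without BMM mock replicate 1 (0.49), 2 (0.46) or 3 (0.5).

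Among the LAT3-LAT4 genes, Slc43a2 (LAT4), a sodium-independent carrier of branched-chain amino acids, phenylalanine and methionine, fell the most of all transporter genes in both cell types. It read 4.34, 4.39 and 4.07 in MPI-2 LPS and 6.22, 6.11 and 5.84 in MPI-2 mock. It read 5.08, 5.67 and 4.72 in BMM LPS and 9.22, 8.98 and 9.33 in BMM mock. The groups were far apart, and BMM LPS arrays had come down to below the MPI-2 mock level. The response was -1.79 ± 0.2 in MPI-2 (adjusted p = 1.24e-05) and -4.02 ± 0.2 in BMM (6.63e-10), with a difference of 2.23 ± 0.28 (4.69e-05). MPI-2 lay below BMM by 0.89 with LPS (-0.89 ± 0.2) and by 3.12 with mock (-3.12 ± 0.2).

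Slc43a3, a member of that family by sequence that carries purine nucleobases and not amino acids, rose instead. It read 9.5, 9.51 and 9.34 in MPI-2 LPS against 8.64, 8.69 and 8.66 in MPI-2 mock, and 7.01, 6.86 and 6.46 in BMM LPS against 6.11, 6.25 and 6.36 in BMM mock. LPS arrays were above mock arrays throughout. The response was 0.79 ± 0.14 in MPI-2 (adjusted p = 0.000902) and 0.53 ± 0.14 in BMM (0.00964; 0.0692 when only BMM arrays were fitted). The gene was higher in MPI-2 by 2.68 with LPS and 2.42 with mock. Slc43a1 (LAT3) was near background in all groups, with means of 3.18 to 3.49, and was called in no comparison.

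**Figure D2:**
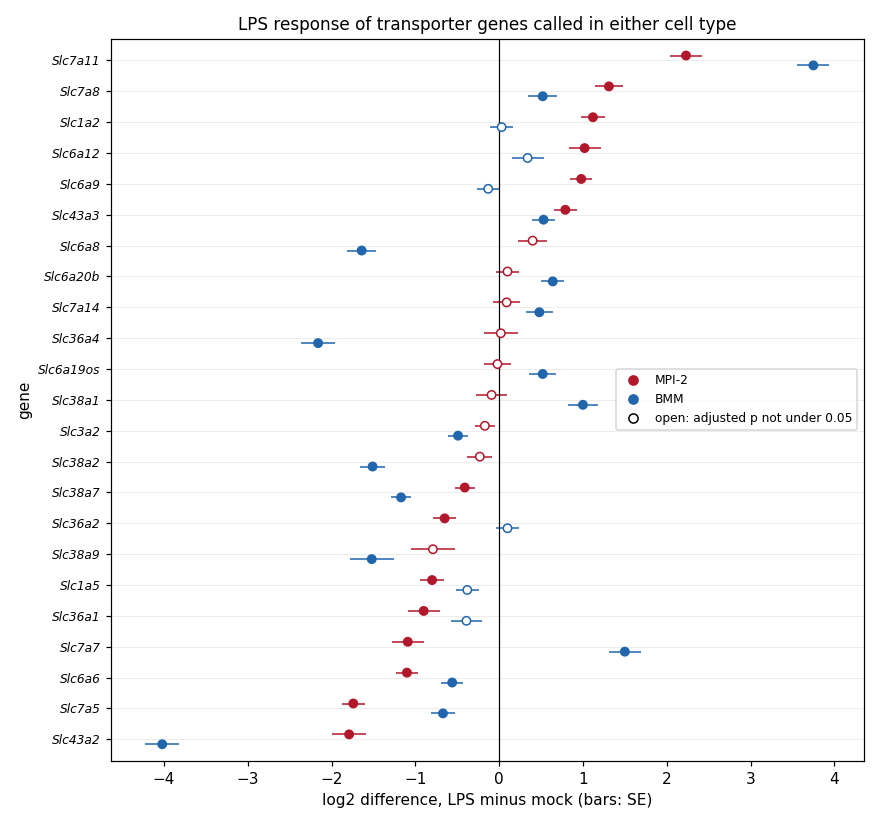
LPS minus mock (log2, with SE) for the 23 transporter genes called in at least 1 cell type; MPI-2 in red, BMM in blue, open points not called. Slc7a11 is at the high end in both, Slc43a2 at the low end in both, and Slc7a7 lies on opposite sides of 0.

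Of the 7 Slc1 genes, 5 were above background and the glutamine exchanger Slc1a5 (ASCT2) differed most between the cells. It read 6.59, 6.66 and 6.83 in MPI-2 LPS and 7.37, 7.68 and 7.45 in MPI-2 mock, and 3.99, 4.32 and 4.02 in BMM LPS and 4.49, 4.3 and 4.69 in BMM mock. All MPI-2 arrays were above all BMM arrays. MPI-2 was higher by 2.58 ± 0.14 with LPS (adjusted p = 6.17e-10) and by 3 ± 0.14, or 8.03-fold, with mock (1.61e-10). With LPS it fell by 0.8 in MPI-2 (SE 0.14, 0.000894), and the BMM value of -0.38 ± 0.14 was not called (0.0609) unless BMM LPS replicate 2 (-0.49, 0.0235) or BMM mock replicate 2 (-0.48, 0.0338) was left out. The responses themselves were not told apart (-0.42 ± 0.2, 95% interval -0.85 to 0.01, adjusted p = 0.23).

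Slc1a2 (EAAT2), known as the main glutamate carrier of astrocytes, was highest on the MPI-2 LPS arrays, which read 4.41, 4.32 and 4.62. MPI-2 mock arrays read 3.46, 3.29 and 3.23, BMM LPS arrays 3.63, 3.7 and 3.51, and BMM mock arrays 3.89, 3.43 and 3.44. The MPI-2 LPS arrays stood above all others, which lay close to background. The response was 1.12 ± 0.14 in MPI-2 (adjusted p = 5.1e-05) and 0.03 ± 0.14 in BMM (0.924, 95% interval -0.28 to 0.33), and the difference of 1.1 ± 0.2 was called (0.00151). The MPI-2 mock mean of 3.33 lay under background, so 1.12 and 1.1 are not read as sizes.

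Of the 11 sodium-coupled neutral carriers of the Slc38 family 8 were above background. Slc38a2 (SNAT2), a glutamine and alanine importer known to be induced when amino acids run short, read 10.63, 10.67 and 10.47 in MPI-2 LPS and 10.9, 10.78 and 10.8 in MPI-2 mock. It read 8.46, 8.83 and 8.23 in BMM LPS and 9.77, 10.07 and 10.2 in BMM mock. The BMM groups were far apart and the MPI-2 groups close together. The response was -0.23 ± 0.15 in MPI-2 (adjusted p = 0.447, not called), against -1.51 ± 0.15 in BMM (1.96e-06), and the difference of 1.28 ± 0.22 was called (0.000803). The MPI-2 value was called under cyclic loess (-0.44, 0.0326) and quantile normalization (-0.58, 0.00658).

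Slc38a1 (SNAT1), another glutamine importer, went the other way in BMM. It read 5.33, 5.15 and 5.28 in MPI-2 LPS and 5.39, 5.6 and 5.04 in MPI-2 mock, and 8.52, 8.83 and 8.33 in BMM LPS and 7.2, 7.73 and 7.76 in BMM mock. On this probe set MPI-2 groups overlapped, and BMM groups did not. The second probe set of the gene read 3.33, 4.58 and 4.55 in BMM LPS and 3.15, 3.95 and 3.77 in BMM mock, which overlapped. Its MPI-2 arrays were all under background. On the first probe set the response was -0.09 in MPI-2 (adjusted p = 0.864) and 1 ± 0.18 in BMM (0.000551), with a difference of -1.09 ± 0.25 (0.00864). Slc38a1 was the transporter gene furthest below BMM in MPI-2 with LPS, at -3.31 ± 0.18, and stood at -2.22 ± 0.18 with mock, so Slc38a1 was higher in BMM where Slc38a2 was higher in MPI-2 (by 2.09 with LPS and 0.81 with mock).

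Both lysosomal members of the Slc38 family fell in BMM. Slc38a7, which exports glutamine from lysosomes, read 6.74, 6.97 and 6.8 in MPI-2 LPS against 7.29, 7.33 and 7.11 in MPI-2 mock, and 5.91, 6.1 and 5.81 in BMM LPS against 7.09, 7.06 and 7.18 in BMM mock. The mock groups lay at about the same level, and the LPS groups below it. It fell by 0.41 in MPI-2 (SE 0.12, adjusted p = 0.0335) and by 1.17 in BMM (0.12, 2.52e-06), with a difference of 0.76 ± 0.17 (0.00731). The MPI-2 call was lost without MPI-2 LPS replicate 1 (-0.36) or 3 (-0.39), without MPI-2 mock replicate 1 (-0.38) or 2 (-0.37), under cyclic loess (-0.33) and with a trended robust prior.

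Slc38a9, the arginine sensor through which lysosomes report to mTORC1, read 4.9, 4.71 and 4.49 in MPI-2 LPS and 5.63, 5.5 and 5.34 in MPI-2 mock, and 4.82, 4.57 and 4.28 in BMM LPS and 5.23, 6.47 and 6.52 in BMM mock. On this probe set all LPS arrays were below the mock arrays of their cell type, and BMM mock replicate 1 lay well under its group. The second probe set of the gene read 4.4, 4.35 and 4.43 in MPI-2 LPS against 4.29, 4.01 and 4.21 in MPI-2 mock, the other way round, and 4.5, 4.54 and 4.22 in BMM LPS against 4.97, 5.36 and 5.15 in BMM mock, the same way. With both probe sets averaged the response was -0.28 in MPI-2 (adjusted p = 0.435) and -1.13 in BMM (0.000224), so the lower values in MPI-2 rest on 1 probe set. On the first probe set alone it was -0.79 ± 0.26 in MPI-2, which was not called (adjusted p = 0.0605), and -1.52 ± 0.26 in BMM (0.000404; -1.94 without that array). The MPI-2 value, unchanged in size at -0.79, was called when any BMM mock array was left out (0.00162, 0.0469 and 0.0468 without replicates 1, 2 and 3), and likewise for BMM LPS replicate 3 (0.0478). The difference of responses was not called (0.73 ± 0.37, adjusted p = 0.272), except without BMM mock replicate 1 (1.15, 0.00244) or with both probe sets of the gene averaged (0.85, 0.0422).

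The proton-coupled Slc36 carriers had 3 of 4 genes above background, and Slc36a4 (PAT4), a carrier of proline and tryptophan found on inner membranes, answered LPS in BMM. It read 9.61, 9.58 and 9.57 in MPI-2 LPS and 9.55, 9.58 and 9.59 in MPI-2 mock. It read 6.48, 6.9 and 6.19 in BMM LPS and 8.17, 8.91 and 8.97 in BMM mock. The 6 MPI-2 arrays overlapped within a narrow band above every BMM array. The response was 0.02 ± 0.2 in MPI-2 (95% interval -0.4 to 0.44, adjusted p = 0.982) and -2.16 ± 0.2 in BMM (5.83e-07), and the difference of 2.18 ± 0.28 had an adjusted p of 5.69e-05. MPI-2 was therefore further above BMM with LPS (3.07 ± 0.2) than with mock (0.89 ± 0.2).

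Slc36a1 (PAT1), which exports small neutral amino acids from lysosomes, averaged 6.09 in MPI-2 LPS against 6.99 in MPI-2 mock, and 6.65 in BMM LPS against 7.04 in BMM mock. It fell by 0.9 in MPI-2 (SE 0.19, adjusted p = 0.00385), and the BMM value of -0.39 was not called (0.159), save without BMM LPS replicate 2 (-0.56, 0.0474). Slc36a2 (PAT2), a kidney carrier of proline and glycine, hovered about background, at 3.07 in MPI-2 LPS, 3.72 in MPI-2 mock, 3.46 in BMM LPS and 3.36 in BMM mock. Its response was -0.65 ± 0.14 in MPI-2 (0.00428). The difference from BMM, -0.75 ± 0.2 (0.0186), was lost without MPI-2 LPS replicate 1 (-0.65) or 3 (-0.7) or BMM mock replicate 3 (-0.66).

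Of the Slc6 genes for taurine, creatine, betaine and GABA, 4 of 5 were above background. The betaine and GABA carrier Slc6a12 (BGT1), known for osmolyte uptake, read 9.94, 9.98 and 9.85 in MPI-2 LPS and 8.94, 8.88 and 8.89 in MPI-2 mock, and 6.67, 6.79 and 6.4 in BMM LPS and 6.81, 5.89 and 6.16 in BMM mock. MPI-2 arrays were all above BMM arrays, LPS above mock in MPI-2, and the BMM groups overlapped through mock replicate 1. The response was 1.02 ± 0.19 in MPI-2 (adjusted p = 0.0011) and 0.34 in BMM (0.215; 0.6, adjusted p = 0.00494, without BMM mock replicate 1). The difference of responses was not called (0.69 ± 0.26, 0.111), except without BMM mock replicate 2 (0.88, 0.0232). MPI-2 was higher by 3.3 ± 0.19 with LPS, the largest excess among the transporter genes there, and by 2.61 ± 0.19 with mock.

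The creatine carrier Slc6a8 read 8.36, 8.35 and 8.27 in MPI-2 LPS and 8.04, 7.97 and 7.76 in MPI-2 mock, and 7.39, 7.76 and 7.36 in BMM LPS and 9.05, 8.83 and 9.57 in BMM mock. LPS arrays were above mock arrays in MPI-2 and below them in BMM. The MPI-2 response of 0.4 was not called (adjusted p = 0.157), save when only MPI-2 arrays were fitted (0.00976) or with array weights (0.39, 0.026), whereas the gene fell by 1.64 in BMM (SE 0.17, 2.47e-06). The difference was 2.05 ± 0.24 (2.71e-05). The order of the cells thus turned: MPI-2 was higher by 0.83 ± 0.17 with LPS (0.00102; 0.38 and not called under cyclic loess), and lower with mock, at -1.22 ± 0.17 (3.08e-05).

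The taurine carrier Slc6a6 read 8.4, 8.26 and 8.19 in MPI-2 LPS and 9.54, 9.4 and 9.2 in MPI-2 mock, and 8.68, 8.79 and 8.46 in BMM LPS and 9.04, 9.32 and 9.26 in BMM mock. LPS arrays were below mock arrays in both. It fell by 1.1 in MPI-2 (SE 0.13, adjusted p = 3.56e-05) and by 0.56 in BMM (0.13, 0.0055), and the difference of responses was called only without BMM LPS replicate 3 (-0.63, 0.0346) or with both that array and the first BMM mock array left out (-0.55, 0.0499). Among the 11 Slc6 amino acid carriers, 5 above background, the glycine carrier Slc6a9 (GlyT1) read 5.76, 5.74 and 5.72 in MPI-2 LPS and 4.71, 4.82 and 4.74 in MPI-2 mock, and 4.1, 4.42 and 4.48 in BMM LPS and 4.27, 4.51 and 4.61 in BMM mock. It rose in MPI-2 (0.98 ± 0.13, 7.45e-05), and its BMM groups overlapped. The difference of 1.11 ± 0.18 was called (0.00061), and with LPS the gene was higher in MPI-2 by 1.41 ± 0.13 (2.54e-07).

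The other Slc38 genes above background were not called with LPS as reported, but single arrays decided some of these calls. Slc38a6 averaged 6.98 in MPI-2 LPS, 6.64 in MPI-2 mock, 7.58 in BMM LPS and 7.07 in BMM mock. Its BMM response of 0.51 ± 0.18 missed the threshold (adjusted p = 0.0515) and passed it without BMM LPS replicate 3 (0.73, 0.00221) or BMM mock replicate 2 (0.59, 0.0475) or 3 (0.6, 0.0497). With LPS it was lower in MPI-2 than in BMM (-0.6 ± 0.18, 0.0141), a call lost without BMM LPS replicate 1 (-0.51) or 2 (-0.46). Slc38a10 averaged 5.12 in MPI-2 LPS, 5.45 in MPI-2 mock, 4.86 in BMM LPS and 5.18 in BMM mock, and its MPI-2 response of -0.33 was called only without BMM mock replicate 1 among the single arrays (0.0422). Its BMM response was much the same, -0.32 ± 0.12, and missed the threshold narrowly as reported (adjusted p = 0.0531). Slc38a8 averaged 3.43 to 3.93 over the groups and was called higher with LPS in BMM without BMM LPS replicate 3 (0.6, 0.0303) or BMM mock replicate 1 (0.66, 0.00788), and Slc38a5 averaged 3.1 to 3.65.

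The remaining calls were small or near background. The proline carrier gene Slc6a20b was called higher in BMM (adjusted p = 0.00215), with means of 3.67 with LPS and 3.03 with mock, the mock mean under background. The serotonin carrier Slc6a4 averaged 4.74 in MPI-2 LPS, 5.1 in MPI-2 mock, 4.47 in BMM LPS and 4.29 in BMM mock, and was higher in MPI-2 with mock (0.81 ± 0.15, 0.000312). Between the LPS groups the dopamine carrier Slc6a3 was called lower in MPI-2 than in BMM (adjusted p = 0.000441), with means of 3.28 in MPI-2, under background, and 3.92 in BMM. The noradrenaline carrier Slc6a2 passed the same test (adjusted p = 0.00479) but was under background in every group. Slc6a19os passed the test in BMM (adjusted p = 0.0276), but its means of 3.19 with LPS and 2.67 with mock were both under background and no change is read from them; the call was lost without BMM LPS replicate 3 (0.36) or BMM mock replicate 2 (0.43) or 3 (0.49). Group means of the other genes above background in at least 1 group stayed low, between 2.82 and 4.06, namely Slc1a4, Slc1a6, Slc1a7, Slc6a7, Slc6a11, Slc6a17, Slc6a20a, Slc7a4 and Slc7a10. The opposite-strand gene Slc7a6os was higher in MPI-2 by 0.86 ± 0.12 with LPS and 0.51 ± 0.12 with mock.

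**Figure D3:**
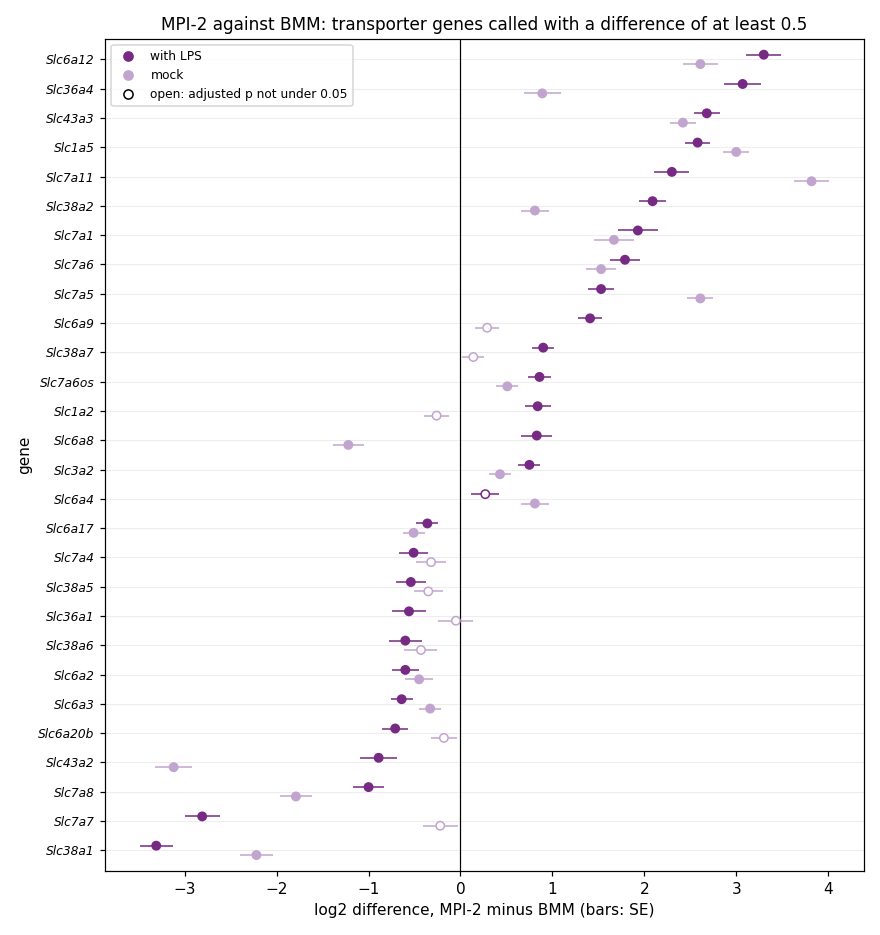
MPI-2 minus BMM (log2, with SE) for transporter genes called with a difference of at least 0.5, with LPS in dark and with mock in light points. Slc6a12, Slc7a11, Slc1a5, Slc7a5 and Slc43a3 lie to the right in both conditions, Slc38a1 and Slc7a8 to the left, and Slc6a8 changes sides.

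Beyond the carriers, genes of the ATF4 and amino acid response were read as a list of 38 measured genes. Some of them supply amino acids or charge tRNAs. Others, among them Nupr1, Ppp1r15a and the Eif2ak kinases, do neither. With LPS in MPI-2, 4 were higher and 3 lower (median 0.06, against 0.02 over all genes, of which 5.17% were called higher and 9.58% lower). In BMM, 5 were higher and 21 lower (median -0.49, against 0.04 over all genes, with 10.3% higher and 15.4% lower). Of the 38 genes 36 lay above background in at least 1 group, against 67% of all genes. With only genes above background fitted, 7.83% were called higher and 14.8% lower in MPI-2, and 14.4% and 23.4% in BMM. The response of 17 of the 38 genes was higher in MPI-2 than in BMM and that of 5 lower. The shares for this difference were 7.08% and 6.27% of all genes, and 11% and 9.48% of genes above background. Over the alternatives the MPI-2 count of higher genes ran from 3 to 10, the highest with array weights, and the BMM count of lower genes from 17 to 22. With array weights 9.73% of all genes were called higher in MPI-2.

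Asns, the asparagine synthetase, read 10.19, 10.16 and 9.98 in MPI-2 LPS and 9.79, 9.63 and 9.66 in MPI-2 mock, and 6.08, 6.35 and 6.21 in BMM LPS and 7.08, 7.77 and 7.79 in BMM mock. Every MPI-2 array was above every BMM array, and LPS and mock arrays did not overlap in either. The response was 0.42 ± 0.17 in MPI-2 (adjusted p = 0.126, not called) and -1.33 ± 0.17 in BMM (1.74e-05). For Atf4 itself it was 0.05 ± 0.16 in MPI-2, with a 95% interval of -0.29 to 0.39, and -0.8 ± 0.16 in BMM (0.00131; -0.52 with BMM arrays mock 1 and LPS 3 both left out). In BMM the leucine sensor Sesn2 (-1.63 ± 0.13), the tRNA synthetases Sars (-1.72 ± 0.17) and Nars (-1.3 ± 0.14) and the stress kinase Eif2ak3 (-1.66 ± 0.19) fell as well. Rising in BMM were Nupr1 (3.17 ± 0.22), Ppp1r15a, the phosphatase subunit that reverses the stress signal (2.77 ± 0.14), the kinase Eif2ak2 (1.77 ± 0.23) and the serine synthesis enzyme Psat1 (1.75 ± 0.15). In MPI-2 Cth, which makes cysteine (0.96 ± 0.13), and Eprs (0.95 ± 0.12) rose. The MPI-2 means of Ppp1r15a (6.1 against 5.43) and Nupr1 (6.66 against 6.07) were also higher with LPS than with mock, with no overlap of arrays. Those of Eif2ak2 (5.95 against 6.1) and Psat1 (8.02 against 8.18) were not. Other genes had lower MPI-2 means with LPS than with mock. Among these were Aldh18a1 (7.07 against 8.03), Eif2ak3 (6.19 against 7.08) and Eif2ak4 (6.11 against 6.68), so Eif2ak3 was lower with LPS in both cell types.

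**Figure D4:**
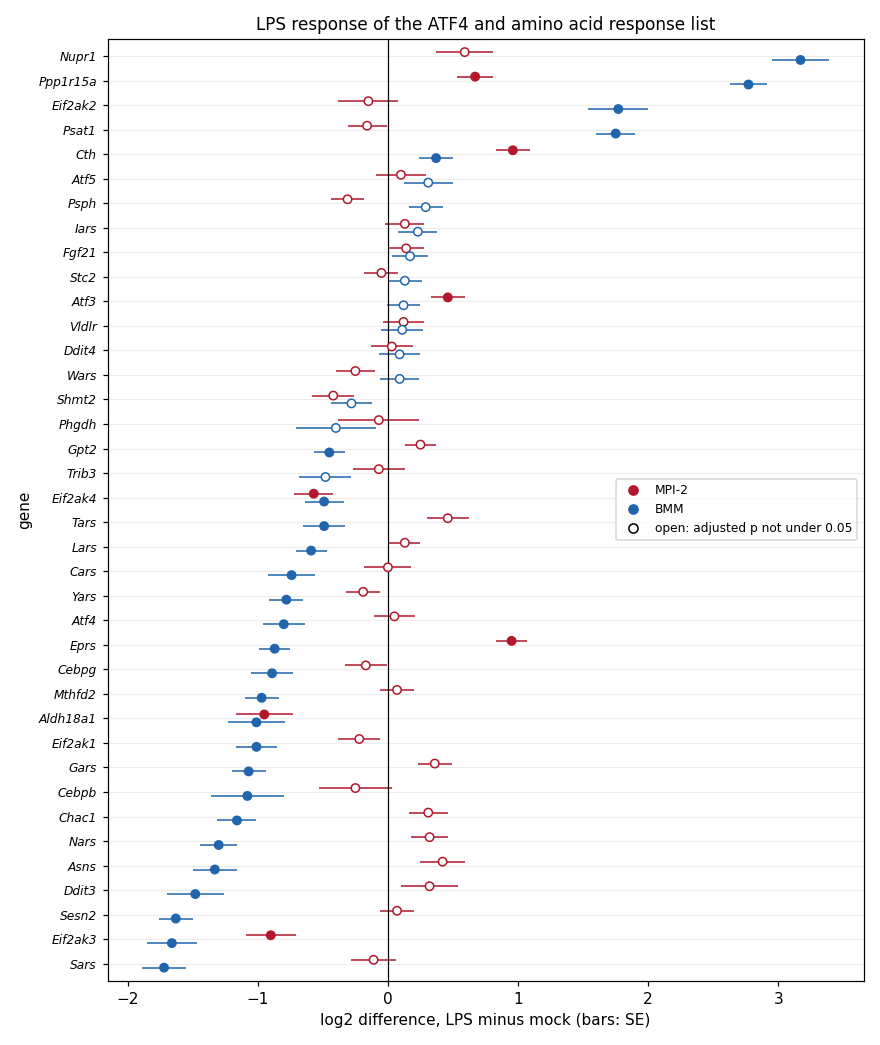
LPS minus mock (log2, with SE) of the 38 measured genes of the ATF4 and amino acid response list, MPI-2 in red and BMM in blue, open points not called. Most blue points lie left of 0, with 21 called lower, while the red points lie about 0.

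Between the cell types 24 of these 38 genes were higher in MPI-2 and 5 lower with LPS (median 0.94, against -0.14 over all genes, of which 22.5% were higher and 21.6% lower), and 17 were higher and 6 lower with mock (0.33, against -0.1, with 20.6% higher and 18% lower). With only genes above background fitted, 33.7% were higher and 25.6% lower with LPS, and 30.8% and 23.6% with mock. Asns was higher in MPI-2 by 3.9 ± 0.17 with LPS and 2.15 ± 0.17 with mock. With mock the serine enzyme Psat1, the glycine enzyme Shmt2 and the tRNA synthetase Tars were higher by 2.62 ± 0.15, 2.06 ± 0.16 and 1.87 ± 0.16.

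Of 35 measured genes of lysosomal amino acid sensing and mTORC1, 2 were higher and 8 lower with LPS in MPI-2 (median -0.11, against 0.02 over all genes), and 2 higher and 18 lower in BMM (-0.44, against 0.04). The shares over all genes were again 5.17% higher and 9.58% lower in MPI-2, and 10.3% and 15.4% in BMM. Of the 35 genes 34 lay above background. Among genes above background the shares were 7.83% and 14.8% in MPI-2, and 14.4% and 23.4% in BMM. Over the alternatives the count of lower genes ran from 3 to 11 in MPI-2 and from 10 to 18 in BMM, and in MPI-2 it was 4 without MPI-2 LPS replicate 3 or MPI-2 mock replicate 1. Sesn1, a brake on mTORC1, read 3.85, 3.79 and 3.77 in MPI-2 LPS and 4.92, 5.13 and 4.75 in MPI-2 mock, and 3.92, 4.01 and 3.8 in BMM LPS and 7.32, 7.53 and 7.4 in BMM mock. It fell by 1.13 in MPI-2 (SE 0.12, adjusted p = 1.17e-05) and by 3.51 in BMM (0.12, 1.57e-11), to a like level in both. The folliculin gene Flcn and its partner Fnip2 fell in BMM, by 2.29 and 1.57, and the other partner Fnip1 rose in MPI-2 (0.79 ± 0.17) and fell in BMM (-1.18 ± 0.17). Tfeb, the factor that drives lysosome genes, fell in both (-1.3 ± 0.18 in MPI-2 and -1.03 ± 0.18 in BMM).

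The NRF2 and glutathione list holds genes of glutathione synthesis, for which Slc7a11 brings in cystine, together with other genes linked to NRF2. In this list 2 of 15 measured genes were higher and 2 lower with LPS in MPI-2, and 5 higher and 6 lower in BMM. Over all genes the shares called higher and lower were 5.17% and 9.58% in MPI-2, and 10.3% and 15.4% in BMM. Of the 15 genes 14 lay above background. Among genes above background the shares were 7.83% and 14.8% in MPI-2, and 14.4% and 23.4% in BMM. The BMM count of higher genes ran from 2 to 5 over the alternatives, and was 3 without BMM LPS replicate 2, BMM mock replicate 1 or BMM mock replicate 3. Gclm, the regulatory subunit of the first glutathione enzyme, fell in both cell types, at -1.37 ± 0.18 in MPI-2 and -1.68 ± 0.18 in BMM. Its catalytic partner Gclc (-1.65 ± 0.17) and Hmox1 (-1.47 ± 0.19) fell in BMM. Other genes of the list rose, among them Me1 (0.83 ± 0.14) and the thioredoxin reductase Txnrd1 (0.64 ± 0.14) in MPI-2, and Txn1 (0.66 ± 0.14), Gss (0.52 ± 0.12) and Txnrd1 (0.51 ± 0.14) in BMM. The Txn1 call was lost under cyclic loess (0.16) and quantile normalization (0.24), and the BMM call of Txnrd1 under quantile normalization (0.35), in a fit of the BMM groups alone, and without BMM LPS replicate 2 (0.41) or BMM mock replicate 3 (0.38). The list thus had no single direction.

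Of 26 measured enzymes of amino acid use, 1 was higher and 5 lower with LPS in MPI-2, and 4 higher and 7 lower in BMM. The shares over all genes were 5.17% and 9.58% in MPI-2 and 10.3% and 15.4% in BMM. Of the 26 genes 22 lay above background. Among genes above background the shares were 7.83% and 14.8% in MPI-2, and 14.4% and 23.4% in BMM. The MPI-2 count of higher genes ran from 1 to 4 over the alternatives. Nos2, which makes nitric oxide from arginine, averaged 3.04 with LPS and 2.93 with mock in MPI-2, under background, and in BMM 5.77 with LPS and 3 with mock, the mock value under background too. It was called higher in BMM (adjusted p = 2.58e-09), with no size read from a mock level that is only a bound. The arginase gene Arg2 rose in BMM too (1.72 ± 0.2). The aspartate aminotransferase Got1 fell in BMM by 3.65 (SE 0.26, adjusted p = 4.08e-08). Its MPI-2 mean was lower with LPS too (6.29 against 7.24), with no overlap of arrays. Odc1, which makes polyamines from ornithine, rose in MPI-2 (0.87 ± 0.2) and fell in BMM (-1.6 ± 0.2).

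Of 16 measured amino acid carriers of other families, 2 were higher and 5 lower with LPS in MPI-2, and 1 higher and 7 lower in BMM, beside 5.17% and 9.58% of all genes in MPI-2 and 10.3% and 15.4% in BMM. Of the 16 genes 14 lay above background. Among genes above background the shares were 7.83% and 14.8% in MPI-2, and 14.4% and 23.4% in BMM. The BMM count of lower genes ran from 4 to 8 over the alternatives. The lysosomal carriers of cysteine and of cystine in the list were among those lower in BMM. The cysteine importer Mfsd12 fell by 1.21 in MPI-2 (SE 0.16) and by 2.47 in BMM (0.16). The cystine exporter Ctns (cystinosin) read 7.25, 7.01 and 7.01 in MPI-2 LPS and 7.68, 7.39 and 7.17 in MPI-2 mock. It read 4.29, 4.66 and 3.92 in BMM LPS and 6.08, 6.28 and 6.69 in BMM mock. Every BMM LPS array was below all other arrays. The response was -0.32 ± 0.2 in MPI-2 (adjusted p = 0.387, not called) and -2.06 ± 0.2 in BMM (9.6e-07), and the difference of 1.74 ± 0.28 was called (0.000459). The mitochondrial glutamate carrier Slc25a22 had opposite responses, -1.1 ± 0.22 in MPI-2 and 1.23 ± 0.22 in BMM, and the aromatic amino acid carrier Slc16a10 rose in MPI-2 by 1.45 ± 0.2.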

How the data were processed

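The deposited values are log2 expression, 1 number for each probe set on each array. The authors used RMA and affy, per the submitters' processing notes, with versions not given in the sources. RMA removes background, normalizes and summarises probes, so a value has meaning only beside the other genes of its array. Whether the 12 arrays were processed together is not stated, and base 2 was taken from the method and the range, 1.18 to 12.82. Of 34760 probe sets, 21640 name 1 gene, 1321 several and 11799 none here. The probe set of highest mean stood for a gene (2 of the 63 transporter genes had several), which left 19937 genes, none filtered. A model of 4 group means was fitted with limma 3.58.1 in R 4.3.3 (8 residual and 6.99 prior degrees of freedom), giving 5 comparisons; adjusted p-values are limma's, Benjamini-Hochberg over all genes. Array values are given for transporter genes called with at least log2 1 in an LPS comparison or the difference of responses, or at least 2 between cell types, and for Slc3a2, Slc7a5, Slc7a11, Slc7a1, Slc1a5 and Slc38a2; of other lists up to 4 genes of smallest adjusted p per direction and comparison are named, and Atf4, whose list it heads, was added after its values were seen. The members and lists were chosen with earlier results of these data known. The number of arrays limits the precision. The fit was tested on simulated data. Alternatives were other scalings, filters, priors, weights, a replicate block and leaving out arrays. 1 gene of the Slc7 family is not reported here.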

Additional observations from a re-analysis of the deposited data

Results flagged for a closer look

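The LPS response differed between MPI-2 and BMM, by the test of the difference itself (MPI-2 minus BMM, limma adjusted p over all genes), for 13 transporter genes. A higher response in MPI-2 was found for Slc43a2 (2.23 ± 0.28), Slc36a4 (2.18 ± 0.28), Slc6a8 (2.05 ± 0.24), Slc38a2 (1.28 ± 0.22), Slc6a9 (1.11 ± 0.18), Slc1a2 (1.1 ± 0.2), Slc7a8 (0.79 ± 0.25) and Slc38a7 (0.76 ± 0.17). A lower response in MPI-2 was found for Slc7a7 (-2.59 ± 0.27), Slc7a11 (-1.52 ± 0.27), Slc38a1 (-1.09 ± 0.25), Slc7a5 (-1.07 ± 0.19) and Slc36a2 (-0.75 ± 0.2). For Slc43a2 and Slc38a7 the higher value means a smaller fall in MPI-2, for Slc7a11 the lower value means a smaller rise, and for Slc7a5 it means a larger fall. Slc7a7 alone among the 13 was called in opposite directions in the cell types. The calls of Slc7a8 and Slc36a2 depended on single arrays. The MPI-2 mock mean of Slc1a2 and the MPI-2 LPS mean of Slc36a2 lay under background. Groups of 3 arrays were too small to look for single outlying samples by a fixed rule.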

How the results depend on the processing

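Each comparison was refitted under 22 alternatives. Of 102 calls of transporter genes over the 5 comparisons, 72 were kept under every one of them and 30 were lost under at least 1, and all 51 calls of at least log2 1 were kept; no call of a transporter gene turned its direction. Counts of called transporter genes moved by over 1.5 times as follows. Fitting only the compared groups gave 4 higher genes with LPS in BMM, against 8, beside 6.63% of all genes, against 10.3%. Array weights gave 10 higher genes with LPS in MPI-2, against 6, beside 9.73% of all genes, against 5.17%. Genes lower in MPI-2 than in BMM numbered 10 under cyclic loess, 10 under quantile normalization and 7 under median centring with LPS, against 19, and 7 under quantile normalization and 5 under median centring with mock, against 12. Of all genes these settings called 17.6%, 17.2% and 11.2% lower with LPS, against 21.6%. With mock the shares were 15.7% and 9.58%, against 18%. Leaving out 1 array at a time gave 6 to 6 higher and 7 to 10 lower genes with LPS in MPI-2, 6 to 9 higher and 9 to 13 lower in BMM, and 7 to 9 higher and 4 to 6 lower for the difference of responses. Between the cell types it gave 15 to 15 higher and 9 to 19 lower with LPS, and 12 to 13 higher and 7 to 16 lower with mock. The shares of all genes ran from 3.93% to 5.97% higher and 6.61% to 11.2% lower with LPS in MPI-2. In BMM they ran from 8.6% to 11.8% and 13% to 16.1%, and for the difference from 5.24% to 8.55% and 4.99% to 7.44%. Between the cell types with LPS they ran from 20.2% to 23.3% and 14.6% to 23.5%. With mock they ran from 18.2% to 21.7% and 13.2% to 20.4%. With the arrays least like their groups, BMM mock 1 and BMM LPS 3, both left out, the counts higher and lower were 7 and 10 in MPI-2, 11 and 9 in BMM, 8 and 7 for the difference, 16 and 21 between the cells with LPS, and 14 and 12 with mock. Of all genes 7.38% and 13.3% were then called in MPI-2, 11.7% and 16% in BMM, and 10.1% and 9.06% for the difference. Between the cells the shares were 23% and 23.8% with LPS, and 21.6% and 18.5% with mock. Of the other gene lists, 4 genes not called as reported turned direction and were then called: Atf3 with LPS in BMM under quantile normalization (-0.35), Mitf with mock under cyclic loess (-0.43), Iars with LPS between the cells under cyclic loess (-0.41), and Lamtor5 there under cyclic loess (-0.36) and quantile normalization (-0.35). The causes of these shifts were not tested.

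The replicate numbers of LPS and mock arrays did not pair them: correlations of same-numbered deviations were 0.05, -0.15 and -0.09 in MPI-2 and 0.24, -0.09 and -0.01 in BMM. The numbers are those of the sample titles; in MPI-2 mock the descriptions carry others, so the MPI-2 pairing and block rest on the titles alone. With a replicate block the counts higher and lower were 6 and 8 in MPI-2, 8 and 9 in BMM, 7 and 5 for the difference, 15 and 16 between the cells with LPS, and 12 and 10 with mock. Of all genes this fit called 5.31% and 9.68% in MPI-2, 10.2% and 15.8% in BMM, and 7.24% and 6.23% for the difference. Between the cells the shares were 22.8% and 21.3% with LPS, and 20.7% and 17.6% with mock.

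Calls within about log2 1 of 0, and genes near the background level, where signal barely exceeds that of olfactory receptor genes, are the ones these arrays resolve least.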
